A study of Mus musculus with 4 samples.

Results

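Amino acid transporters are described here in mouse leukemic cells driven by the MLL-AF9 fusion gene, in cells labelled wild type and in cells labelled Ezh2 KO. The set comprises every probe set of the deposited array table whose single gene symbol begins with Slc1a, Slc3a, Slc6a, Slc7a, Slc36a, Slc38a or Slc43a followed by a digit. That rule used names alone and no measured value. It found 125 of the 45101 probe sets, which stand for 63 of the 18193 genes with a probe set of their own. Of these genes 3, Slc6a19os, Slc7a6os and Slc36a1os, are named for lying opposite a transporter gene. Their names do not mark them as transporters, but they are kept in the counts of transporter genes below. Slc6a19os and Slc7a6os were tested and also enter the medians. The rule also takes in carriers of other solutes, such as the creatine transporter Slc6a8, the monoamine transporters Slc6a2, Slc6a3 and Slc6a4, and the nucleobase carrier Slc43a3.

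The wild-type group held 2 samples and the Ezh2 KO group 2, each on its own Affymetrix Mouse Genome 430 array. All cells had been transformed with MLL-AF9, transplanted into C57BL/6 recipient mice and purified from their bone marrow. Ezh2 is the histone H3 methyltransferase of the Polycomb complex PRC2. The genotype label of the knockout samples names Ezh2, but their protocol label gives recipients carrying Ink4a-/-Arf-/- marrow cells, whereas that of the other group gives wild-type marrow. An effect of that second difference, if it is real, cannot be told apart from that of Ezh2. The labels do not state the age of the mice, how the deletion was made, or whether the samples of a group were separate leukemias, so the p-values cover the spread between these samples only, which may be technical.

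Amino acids cross the plasma membrane through carriers of several families. Sodium-coupled carriers of the Slc1 and Slc38 families load cells with glutamine and other neutral amino acids, and exchangers of the Slc7 family use such stores to bring in leucine and other large essential amino acids. The light chains of many Slc7 exchangers reach the membrane only when bound to a heavy chain, Slc3a2 (also called CD98hc or 4F2hc) or Slc3a1. Leucine and arginine are sensed inside the cell and switch on the growth kinase mTORC1 at the lysosome. A shortage of amino acids instead raises translation of the transcription factor Atf4.

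The Ezh2 probe set itself read 5216 and 5315 intensity units on the wild-type arrays and 4989 and 4991 on the knockout arrays, a difference of -0.08 on the log2 scale (SE 0.06, adjusted p = 0.484 in limma). Where its probes lie relative to the deleted part was not analysed here, so it checks nothing about the deletion. All 8 markers of leukemic myeloid progenitors (among them Hoxa9, Meis1, Mpo and Kit) had a mean over the 4 arrays above the filter intensity of 19.96. Their summed intensities were 79531 to 81481 in the wild type and 81170 to 88396 in the knockout. Cebpa was the 1 that changed (log2 change -0.63), or 12.5% of the list, against 11.6% of all genes tested. Among markers of other marrow cells, those of mast cells, basophils and eosinophils differed most in sum, at 1300.2 and 1348 in the wild type and 3119 and 3402 in the knockout. In that list 5 of 6 exceeded the filter. Cpa3 (50.6 and 64.8 against 1318 and 1241) and Prg2 (171 and 204 against 965 and 864) were the 2 that rose. That is 40% of the 5, and of all genes tested 5.55% were higher. Gata2 read 163 and 98.9 against 224 and 249.7 (limma adjusted p = 0.0542), Mcpt8 798 and 843 against 744 and 642 (adjusted p = 0.181) and Ms4a2 114 and 136 against 139 and 104 (adjusted p = 0.946). The mast cell receptor gene Fcer1a, not tested, read 2.88 and 1.52 against 12.0 and 17.5. Erythroid markers summed to 157 and 178 in the wild type and to 156 and 220.0 in the knockout (2 of 5 matched genes above the filter, with Hba-a1 at 3.33 to 8.93), B cell markers to 825 to 839 and 840 to 965 (3 of 5), T and NK cell markers to 133 to 194 and 125 to 282 (2 of 6), platelet markers to 364 to 375 and 501 to 609 (4 of 4) and stromal and endothelial markers to 550 to 566 and 433 to 516 (5 of 6). Sums of the B cell, platelet, and stromal and endothelial markers thus did not overlap between the groups either. In limma 0 genes of these lists passed, against 11.6% of all genes tested. Most of the B cell sum came from Cd79b (763 and 739 against 761 and 848). Most of the stromal and endothelial sum came from Pecam1 (390 and 381 against 240 and 317). How often sums of such lists do not overlap was not examined. The part of any of these other marrow cells in the transporter results was not tested. In bulk RNA of this kind, fewer cells of a type and less RNA per cell cannot be told apart.

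The comparison asks which of these transporters differ between the groups. Of the 63 genes, 47 had a mean above the filter intensity of 19.96 and were tested; the other 16 were not tested and read between 0.558 and 26.4 on every array. Of the 47, Slc7a5 and Slc7a1 were lower and Slc6a12 was higher in Ezh2 KO at a limma adjusted p under 0.05. That is 3 genes or 6.38%, against 11.6% of all 13916 genes tested with the same fit. In each direction the background was 5.55% for higher and 6.01% for lower genes. Over the 47 genes 23 had a positive and 24 a negative log2 change, with a median of -0.066, and the median over all genes was 0.007. The median absolute log2 change was 0.24 for the transporters and 0.20 for all genes. The groups of arrays did not overlap in 24 of the 47 transporter genes (14 higher, 10 lower in the knockout), or 51.1%, a share close to the 52.5% of all genes tested. With a single prior variance for all genes limma called 0 transporters and 0 of all genes tested. An unadjusted p under 0.05 was then reached by 6 transporter genes. With the prior that follows intensity it was reached by 8, or 17.0%, against 24.9% of all genes tested.

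**Figure D1:**
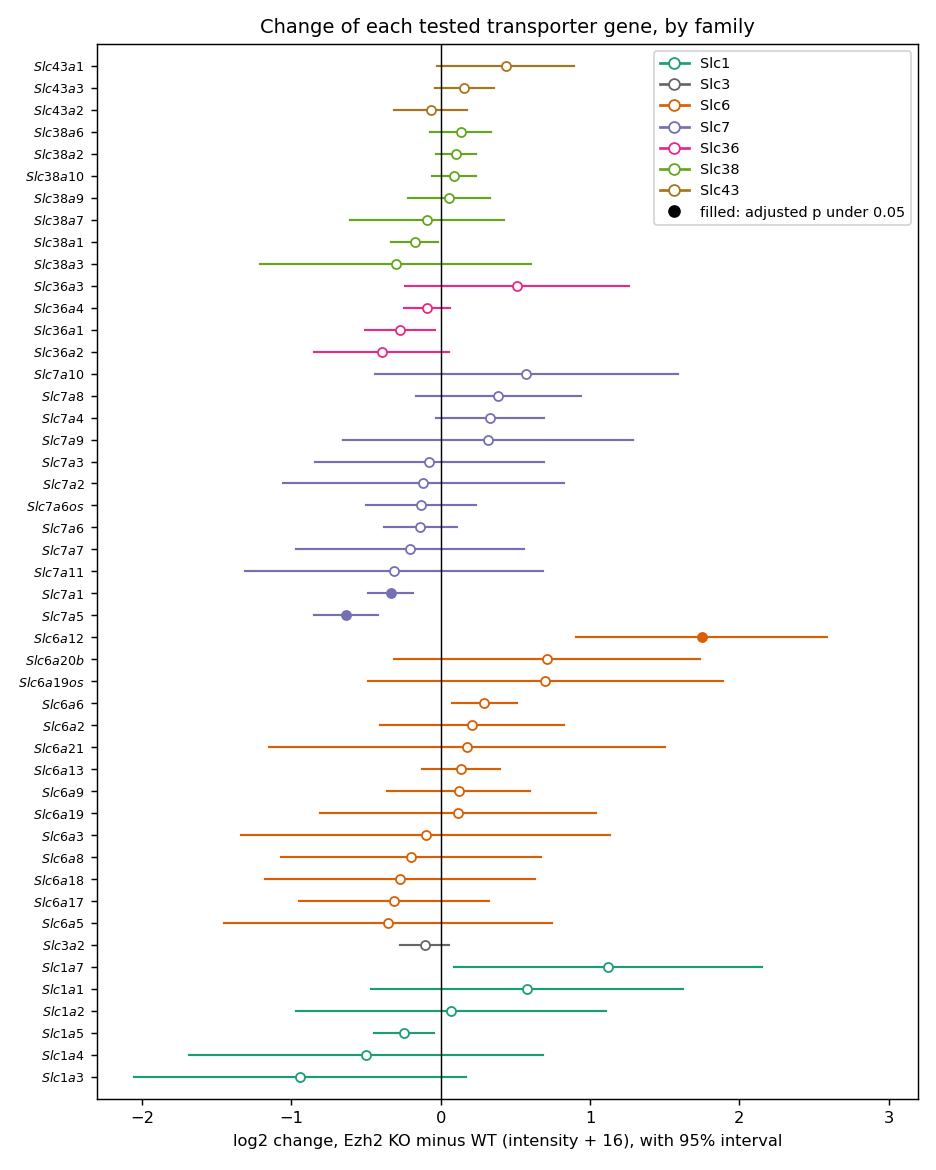
Log2 change (Ezh2 KO minus WT, on intensity + 16, horizontal axis) of the 47 tested transporter genes, grouped and coloured by family, with 95% intervals from limma over 2 arrays per group. Filled points mark the 3 genes with an adjusted p under 0.05: Slc7a5 at -0.63, Slc7a1 at -0.33 and Slc6a12 at 1.75.

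Slc7a5, also called LAT1, exchanges intracellular glutamine for leucine and other large neutral amino acids and is a main route for essential amino acids in dividing cells. Its single probe set read 830 and 849 on the wild-type arrays and 523 and 549 on the knockout arrays. Both knockout arrays lay well below both wild-type arrays, and the gap between the groups was many times the difference within either. The log2 change was -0.63 (SE 0.10, 95% interval -0.85 to -0.42, limma adjusted p = 0.00278), a 1.55-fold fall. The call held in 12 of 13 alternatives and was lost with the single prior variance (adjusted p = 0.102).

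The heavy chain partner of Slc7a5 gave a smaller difference. Slc3a2 read 1462 and 1447 in the wild type and 1353 and 1344 in the knockout. Its groups did not overlap either, but the log2 change of -0.11 (95% interval -0.27 to 0.06) did not pass (limma adjusted p = 0.424). Whether the changes of Slc3a2 and Slc7a5 differ from each other was not tested. The other light chains of Slc3a2 above the filter did not pass. Slc7a6, which exchanges cationic for neutral amino acids, read 879 and 740 against 763 and 703, so that its groups overlapped (log2 change -0.14, 95% interval -0.38 to 0.11). Its further probe set gave -0.15. Slc7a8, or LAT2, a neutral amino acid exchanger like Slc7a5, read 96.0 and 80.2 in the wild type and 127 and 113 in the knockout. These groups did not overlap, and the log2 change of 0.39 had an interval of -0.17 to 0.94. Slc7a7, which exports cationic amino acids, had a log2 change of -0.21 at its brighter probe set and of -0.83 at the other (limma adjusted p = 0.259 among all probe sets). Slc7a10, a carrier of small neutral amino acids, had 0.57 (interval -0.44 to 1.59). Slc7a11, the cystine and glutamate exchanger that feeds glutathione synthesis, read 26.5 and 37.3 against 27.6 and 17.8, close to the filter on all arrays. Its interval of -1.31 to 0.69 admits changes of more than 2-fold in the downward direction. The second heavy chain, Slc3a1, read between 6.16 and 26.4 and was not tested, and its light chain Slc7a9 gave 0.32 (interval -0.65 to 1.29).

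Slc7a1, or CAT1, is the general carrier of arginine and lysine in most tissues and needs no heavy chain. Its brightest probe set read 2607 and 2567 on the wild-type arrays and 2106 and 1990.3 on the knockout arrays, with no overlap. The log2 change was -0.33 (SE 0.07, 95% interval -0.49 to -0.18, limma adjusted p = 0.0121), a 1.26-fold fall. A further probe set read 1679 and 1565 against 1445 and 1291, again without overlap (log2 change -0.24, limma adjusted p = 0.133 among all probe sets). The remaining one was dim, at 35.2 to 52.3 on the 4 arrays, with a log2 change of -0.05. The call of Slc7a1 was lost without WT replicate 1 (-0.32, adjusted p = 0.0698), without WT replicate 2 (-0.35, adjusted p = 0.0512), when its probe sets were averaged (-0.21, adjusted p = 0.282) and with the single prior variance (adjusted p = 0.197).

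Of the related cationic carriers, Slc7a4, whose substrate is uncertain, read 198 and 196 in the wild type and 254 and 250.3 in the knockout. The arrays within each group were nearly equal, but at this intensity the log2 change of 0.33 did not pass (95% interval -0.03 to 0.69, limma adjusted p = 0.241). Its further probe set gave 0.73 (adjusted p = 0.178 among all probe sets). The inducible arginine carrier Slc7a2 and the related Slc7a3 lay at 23.9 to 35.2 and at 45.6 to 63.0, with overlapping groups. Slc7a12, Slc7a13, Slc7a14 and Slc7a15 were below the filter. Across the Slc7 family, 4 of 12 tested genes were positive and 8 negative, with a median log2 change of -0.12.

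Promoter sequence is shown for 3 Slc7 and Slc6 genes to set the CpG content and motif matches of changed genes beside a gene with known stress elements. RefSeq windows of the 250 bases before a transcript start (GRCm38.p6) were found for 46 of the 63 genes, 67 windows in all. Slc7a5 is not among them. Slc7a1 has 2 annotated starts on the minus strand of chromosome 5, and the windows before them lie at chr5:148399905-148400154, with 21 CpG dinucleotides, and at chr5:148392816-148393065, with 5. The median over 32851 windows was 6. The Slc6a12 window shown, before the first of its 5 annotated starts, is chr6:121342324-121342573 on the plus strand and has 2. The window of Slc7a11 is chr3:50443614-50443863 on the minus strand and also has 2. Capitals mark the letters TGATGNAA on either strand, a form of the composite element bound by Atf4 and C/EBP factors. The E-box CACGTG was searched as well and is absent from these 4 windows.
Slc7a1, upstream start: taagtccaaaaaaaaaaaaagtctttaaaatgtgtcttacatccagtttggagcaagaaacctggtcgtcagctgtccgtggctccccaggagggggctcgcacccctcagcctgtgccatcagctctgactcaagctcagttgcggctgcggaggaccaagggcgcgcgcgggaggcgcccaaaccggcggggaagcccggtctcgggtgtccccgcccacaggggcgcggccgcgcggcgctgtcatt
Slc7a1, downstream start: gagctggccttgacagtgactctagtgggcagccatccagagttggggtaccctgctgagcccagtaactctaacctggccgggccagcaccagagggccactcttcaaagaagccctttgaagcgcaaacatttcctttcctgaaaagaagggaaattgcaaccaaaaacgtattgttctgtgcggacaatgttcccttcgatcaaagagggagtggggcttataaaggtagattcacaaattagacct
Slc6a12, first start: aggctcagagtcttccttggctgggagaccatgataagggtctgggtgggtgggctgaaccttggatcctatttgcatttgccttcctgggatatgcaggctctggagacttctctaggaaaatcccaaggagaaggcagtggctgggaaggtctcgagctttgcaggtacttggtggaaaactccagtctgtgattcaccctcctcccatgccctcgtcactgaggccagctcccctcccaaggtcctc
Slc7a11: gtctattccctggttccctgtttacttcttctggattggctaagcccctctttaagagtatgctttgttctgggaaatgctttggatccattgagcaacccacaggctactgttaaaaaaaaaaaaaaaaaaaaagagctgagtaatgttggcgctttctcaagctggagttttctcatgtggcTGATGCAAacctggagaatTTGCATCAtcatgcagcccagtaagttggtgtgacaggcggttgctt

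The element TGATGNAA occurred in 3.45% of all windows and in 4 of the 67 transporter windows (5.97%), 1 each of Slc6a21 and Slc7a11 and 2 of Slc7a7. Slc7a11 held 2 matches, 1 on each strand, starting 66 and 47 bases before the start. The E-box CACGTG, which reads the same on both strands, occurred in 6.02% of all windows and in 9 of the 67 (13.4%), among them Slc36a1, Slc38a7 and Slc43a1. No transporter window held both motifs, and a match is a description of letters. A window without one says only that these letters are not in it.

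Slc6a12, also known as BGT1, carries betaine and GABA and is known from kidney and liver as a gene of the response to osmotic stress. Its probe set read 30.1 and 12.3 on the wild-type arrays and 115 and 96.1 on the knockout arrays. The groups did not overlap, and 1 wild-type array lay below the filter intensity. The log2 change was 1.75 (SE 0.38, 95% interval 0.91 to 2.59, limma adjusted p = 0.0157), or 3.36-fold on the scale of intensity plus 16. Adding 64 in place of 16 before taking logs gave 1.00, and adding 1 gave 2.39. Without WT replicate 2 it was 1.40 and the call was lost (adjusted p = 0.0568), as it was with the single prior variance (adjusted p = 0.129).

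The other Slc6 members carry neurotransmitters, osmolytes and amino acids. Slc6a6 carries taurine, an osmolyte that is abundant in leukocytes. It read 1073 and 1117 in the wild type and 1468 and 1233 in the knockout, so the groups did not overlap, but the knockout arrays differed from each other by more than the nearest arrays of the groups did. The log2 change of 0.29 (95% interval 0.08 to 0.51) did not pass (limma adjusted p = 0.0832). It passed without Ezh2_KO replicate 2 (0.42, adjusted p = 0.00594). Its 2 further probe sets above the filter gave 0.31 and 0.59, in the same direction. Slc6a13, a GABA and taurine carrier whose gene lies next to Slc6a12, read 559 and 488 against 548 and 607, with overlapping groups (log2 change 0.14, interval -0.12 to 0.40). The glycine carrier Slc6a9, which supplies heme synthesis in erythroid cells, differed between its probe sets. The brighter one gave 0.12, and the other, which read 95.4 and 55.7 against 175 and 135, gave 0.92 (limma adjusted p = 0.0836 among all probe sets). The creatine carrier Slc6a8 read 61.6 and 46.1 against 30.5 and 62.7. Of the 21 Slc6 genes 14 were tested, 9 positive and 5 negative, and 7 lay below the filter, among them the serotonin carrier Slc6a4 and the broad amino acid carrier Slc6a14.

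**Figure D2:**
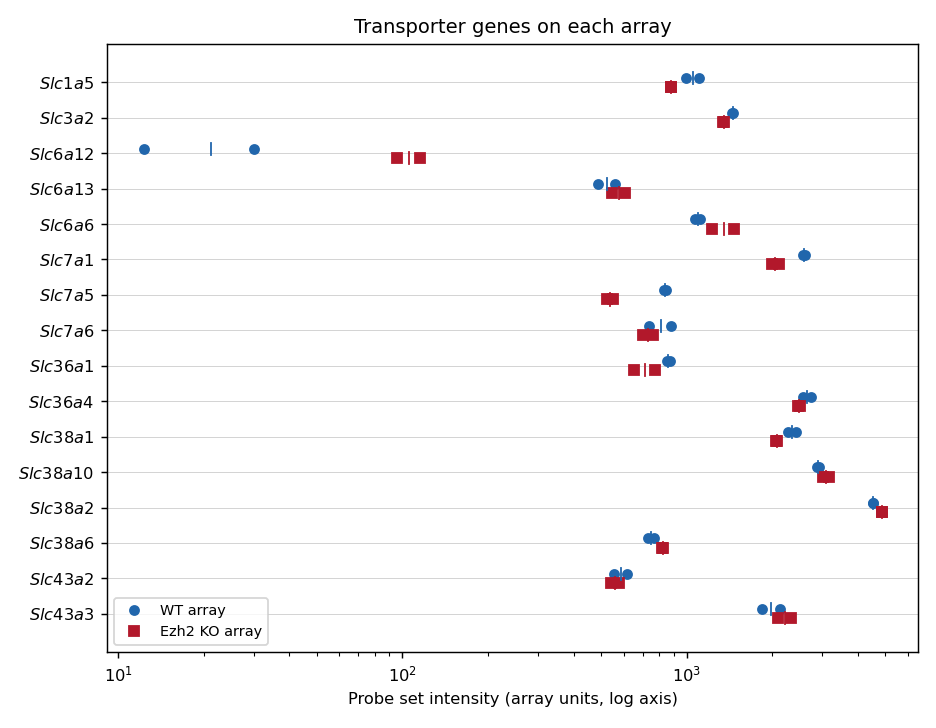
Probe set intensity (log axis) on each of the 2 wild-type arrays (circles) and 2 Ezh2 KO arrays (squares) for the tested transporter genes with an intensity of 500 or more and for Slc6a12; vertical ticks are group means. The knockout arrays of Slc7a5 lie at 523 and 549, apart from the wild-type arrays at 830 and 849, whereas the groups of genes such as Slc38a10 and Slc43a2 lie close together. Levels of different genes are not comparable on this axis.

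Of the Slc1 family, which holds the glutamate carriers and the neutral exchangers Slc1a4 and Slc1a5, 0 of 6 tested genes passed. An unadjusted limma p under 0.05 was found in 2 of the 6, against 24.9% of all genes tested. Slc1a5, or ASCT2, is the main glutamine carrier of many tumour cells. It read 1104 and 997 in the wild type and 883 and 883 in the knockout, without overlap, and its log2 change of -0.24 had a 95% interval of -0.44 to -0.05 (limma adjusted p = 0.114). Its further probe set read 246 and 214 against 228 and 205, with overlapping groups. The glutamate carriers were dim. Slc1a3 read 57.7 and 27.4 against 20.6 and 7.77 (log2 change -0.94, interval -2.05 to 0.17), and Slc1a7 read 11.5 and 8.39 against 39.7 and 41.0 (log2 change 1.12, adjusted p = 0.163). Both had groups that did not overlap, and both had a group that lay wholly or partly below the filter intensity. Slc1a1, Slc1a2 and Slc1a4 had intervals wider than 2 log2 units (the sign of Slc1a2, 0.07, turned with quantile normalization and with median centring), and Slc1a6 was below the filter.

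The Slc38 carriers move glutamine and other neutral amino acids with sodium. None of the 7 tested genes passed in limma, and 1 had an unadjusted p under 0.05 (24.9% of all genes tested did). In the 5 brightest, Slc38a1, Slc38a2, Slc38a6, Slc38a9 and Slc38a10, the 95% intervals all lay between -0.33 and 0.34. Slc38a2, or SNAT2, whose transcript is known to be raised when amino acids are scarce, read 4536 and 4513 in the wild type and 4851 and 4851 in the knockout. These values were tightly grouped and did not overlap, yet the log2 change was 0.10 (interval -0.03 to 0.23). Slc38a1, or SNAT1, gave the opposite sign, at 2268 and 2420 against 2086 and 2064 (log2 change -0.17, interval -0.33 to -0.02, adjusted p = 0.151), and its further probe set gave -0.20. Slc38a9, the lysosomal arginine sensor upstream of mTORC1, read 374 and 415 against 408 and 412, and 6 of its 7 probe sets above the filter had a positive sign. Slc38a10 gave 0.09 at its brightest probe set and values from -0.71 to -0.11 at the other 5. The signs of Slc38a9 and of the brightest Slc38a10 probe set turned with median centring (-0.04 and -0.005). Slc38a6 had 0.13 and the lysosomal glutamine carrier Slc38a7 -0.09. Slc38a4 and Slc38a5 were below the filter.

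Several Slc36 carriers couple small neutral amino acids to protons, and Slc36a1 does so at the lysosome, where it takes part in signalling to mTORC1. It read 871 and 853 in the wild type and 653 and 772 in the knockout, without overlap. Its log2 change of -0.27 (95% interval -0.51 to -0.04) did not pass (limma adjusted p = 0.134), and passed without Ezh2_KO replicate 2 (-0.39, adjusted p = 0.0404). Slc36a4 read 2741 and 2560 against 2466 and 2504 (-0.09), Slc36a2 183 and 192 against 156 and 124 (-0.39), and Slc36a3 71.0 and 38.3 against 81.6 and 82.5 (0.51). In all 4 genes the groups did not overlap (3 lower and 1 higher), and in 52.5% of all genes tested they did not overlap either. Of the 4, 0 passed in limma and 1 had an unadjusted p under 0.05 (24.9% of all genes tested did). Of the Slc43 family, the large neutral amino acid carriers Slc43a1 (LAT3) and Slc43a2 (LAT4) did not pass either. Slc43a1 read 186 and 173 against 300 and 205, with the knockout arrays far apart (0.43, interval -0.02 to 0.89). Slc43a2 read 617 and 557 against 577 and 542 (-0.07).

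**Figure D3:**
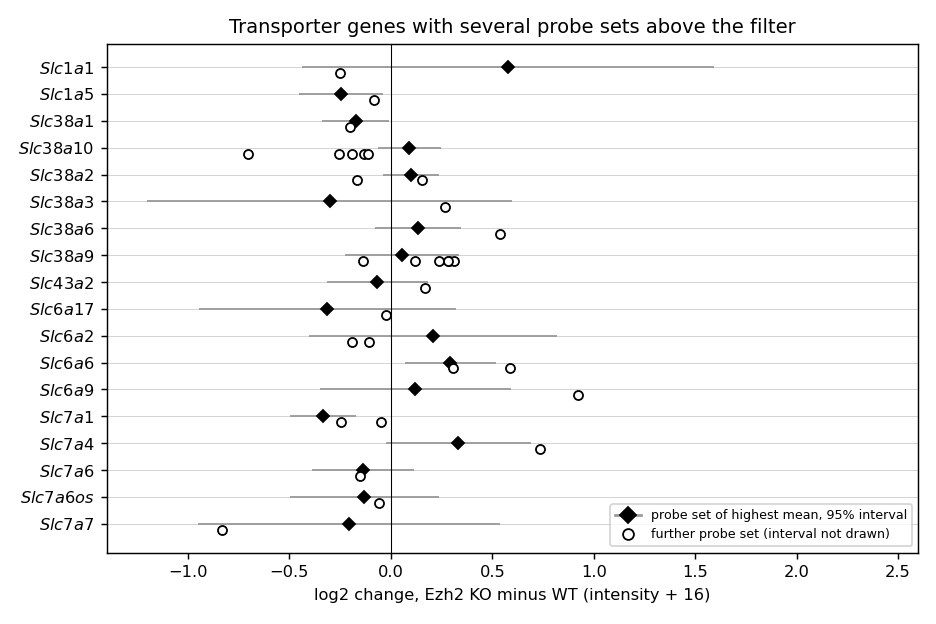
Log2 change (Ezh2 KO minus WT, on intensity + 16) of every probe set above the filter for the 18 transporter genes with more than 1. Diamonds with 95% intervals are the probe set of highest mean and open circles the further ones; all 3 of Slc7a1 lie below 0 and all 3 of Slc6a6 above it, while Slc38a10 and Slc1a1 lie on both sides.

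Among all probe sets, tested in a fit of their own, 78 of the 125 exceeded the filter. The same 3 probe sets passed, 3.85% of the 78, against 7.92% of the 25576 probe sets tested. Of the 18 genes with more than 1 probe set above the filter, 11 had 1 sign throughout, 4 positive and 7 negative, and 7 had both signs. The range between the probe sets of a gene had a median of 0.36 log2 units and reached 0.83 for Slc1a1. On this platform the endings _s_at and _x_at mark probe sets whose probes can also match other transcripts, which applies to the main probe set of Slc38a1 and Slc7a7. The reach of the test depended on intensity. In the 15 tested genes with a mean intensity of 500 or more, the 95% interval extended by a median of 0.20 log2 units on either side, in the 10 between 100 and 500 by 0.47, and in the 22 below 100 by 1.00. Of the 44 genes that did not pass, 40 had a point estimate within 1.5-fold.

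**Figure D4:**
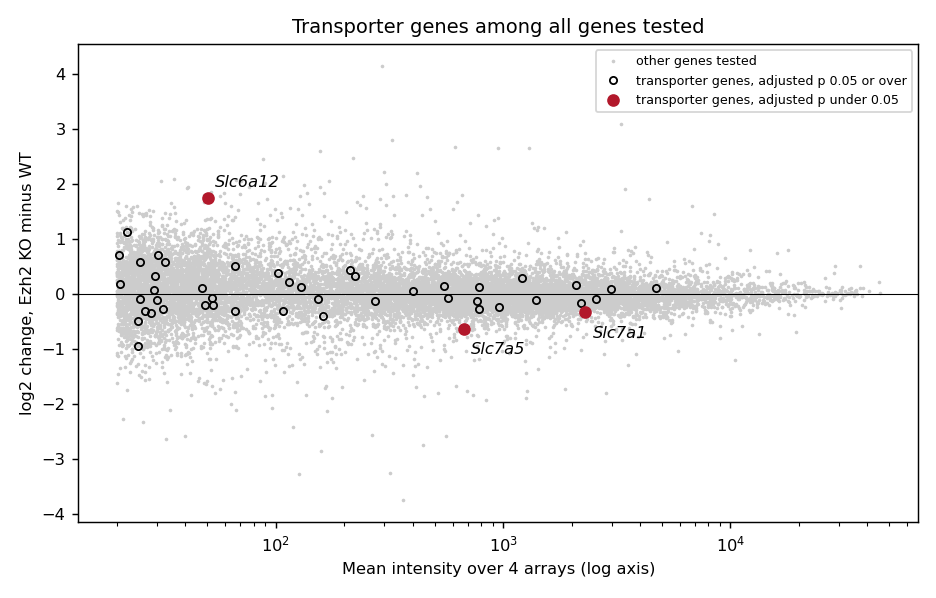
Log2 change (Ezh2 KO minus WT) against mean intensity over 4 arrays (log axis) for the 13916 genes tested, with the 47 transporter genes as open circles and the 3 that passed as filled red points. The spread of all genes is widest at low intensity, where Slc6a12 lies, and Slc7a5 and Slc7a1 lie at intensities where most genes change little.

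Genes that use, sense or respond to amino acids were examined beside the carriers. The amino acid response list holds Atf4 and genes it is known to activate. Of 18 tested members 4 were lower and 1 higher, a share of 27.8% against 11.6% of all genes, with a median log2 change of -0.20. Psat1 and Phgdh, enzymes of serine synthesis, fell 1.80-fold and 1.64-fold. Psat1 read 3829 and 3723 in the wild type and 1933 and 2259 in the knockout (limma adjusted p = 0.000197), and Phgdh 250 and 250.4 against 148 and 144 (adjusted p = 0.0272). Aldh18a1, which starts proline synthesis, fell 1.42-fold and Mthfd2, a mitochondrial folate enzyme, 1.38-fold. The groups of these 4 genes did not overlap, which adds little, as the genes are named for having passed. In 52.5% of all genes tested the groups did not overlap. The member that rose was the transcription factor Cebpb, from 8658 and 9364 to 10619 and 10448 (1.17-fold, limma adjusted p = 0.0489). It is named after its values were seen. Its call was lost with median centring (adjusted p = 0.538), with no filter and with averaged probe sets (adjusted p = 0.0889). The call was also lost without WT replicate 1, WT replicate 2 or Ezh2_KO replicate 1. Atf4 itself had -0.02 and Asns, asparagine synthetase, -0.23 (adjusted p = 0.0792). Phgdh lost its call without WT replicate 1, WT replicate 2 or Ezh2_KO replicate 2 (adjusted p = 0.102, 0.0997 and 0.0544) and with averaged probe sets (-0.57, adjusted p = 0.0748), and Aldh18a1 with averaged probe sets (-0.29, adjusted p = 0.200). The main probe sets of both genes have the ending _x_at, so their probes can also match other transcripts.

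Of the 28 tested enzymes of amino acid metabolism, 3 were lower and 1 higher, with a median log2 change of -0.05. That is 14.3%, close to the 11.6% of all genes tested. Gclm, the modifier subunit of the enzyme that starts glutathione synthesis, read 1779 and 1867 in the wild type and 1095 and 1036 in the knockout (1.70-fold lower, limma adjusted p = 0.000259). Srm, spermidine synthase, read 4575 and 4489 against 2857 and 2763 (1.61-fold lower). Got2, the mitochondrial aspartate aminotransferase, fell 1.40-fold, and Prodh, which starts proline breakdown, rose 1.42-fold from 991 and 1107 to 1458 and 1532. Averaging probe sets reduced the log2 change of Got2 from -0.48 to -0.25 (adjusted p = 0.448). The list of amino acid sensing genes around mTORC1 had 1 of 35 tested members lower and 0 higher (2.86%, against 11.6% of all genes tested, median -0.04). The member was Sec13, a subunit of the GATOR2 complex and of vesicle coats, at 1.19-fold lower. Its call was lost without any 1 of the 4 arrays (log2 change -0.28 to -0.22, adjusted p = 0.0671 to 0.157). Carriers of amino acids in other Slc families had 1 of 19 lower and 0 higher (5.26%, against 11.6% of all genes tested, median 0.03). That was Slc32a1, the vesicular carrier of GABA and glycine, at 275 and 325 against 154 and 167 (1.78-fold lower, adjusted p = 0.0126). Its call was lost without WT replicate 2 (-0.72, adjusted p = 0.0871) and with averaged probe sets (-0.44, adjusted p = 0.438).

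**Figure D5:**
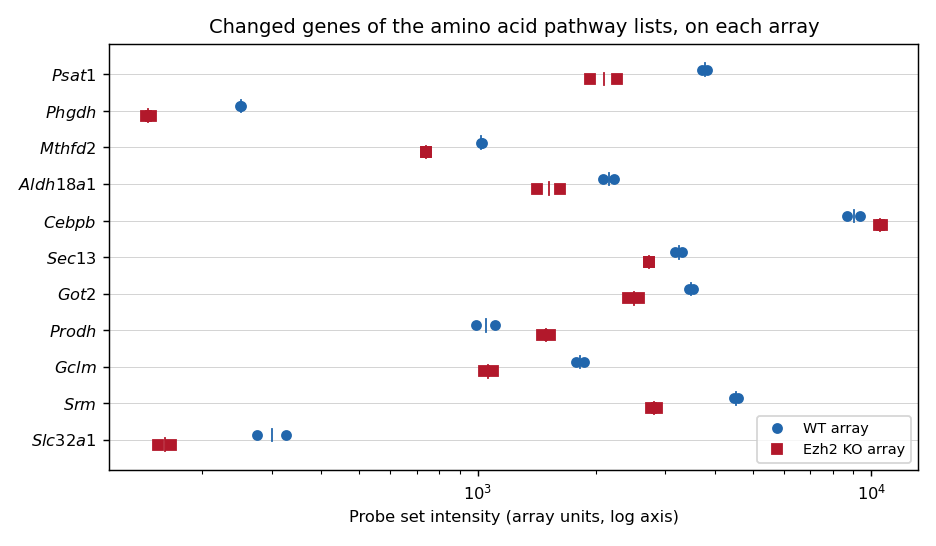
Probe set intensity (log axis) on each wild-type array (circles) and Ezh2 KO array (squares) for the 11 genes of the amino acid pathway lists with an adjusted p under 0.05; vertical ticks are group means. Of the 11, 9 lie lower in the knockout, with Cebpb and Prodh higher. The groups are apart in all 11, which follows largely from choosing them by that p-value. In 52.5% of all genes tested the groups did not overlap.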

How the data were processed

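Each deposited value is the linear intensity of a probe set. The submitters' processing notes name Affymetrix Expression Console as the authors' software; its version and algorithm are not given in the sources used here. On each array the mean trimmed by 2% at each end was 500.003, so differences in total mRNA per cell are lost. Array number limits precision, and detection calls were not used here. Groups and replicate numbers came from sample titles. Symbols came from the platform annotation. The 64 control probe sets and those without a single symbol were left out.

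For each gene the probe set with the greatest mean log2(intensity + 16) was used, and genes above the 30th percentile of those means (an intensity of 19.96) were tested with limma 3.58.1 in R 4.3.3 (lmFit and eBayes, prior variance following intensity, 2 residual degrees of freedom and 9.56 in all). P-values were adjusted over all genes by Benjamini-Hochberg, threshold 0.05. All probe sets with 1 symbol were fitted likewise. Permutation of 2 against 2 arrays cannot give a p under 0.333 (two-sided). Members, lists and tests were chosen with earlier results of these data known. All transporter genes could be named; of each list, the up to 4 changed members of largest change were named. Old list symbols were matched through RefSeq gene identifiers. The alternatives changed the scaling (quantiles, or each array centred on its median), the filter (none, or the 50th percentile), the number added before logs (1 or 64) and, in turn, a single prior variance, averaged probe sets, the replicate number as a block, and leaving out each array in turn with probe sets and filter kept. The averages took in every single-symbol probe set of a tested gene, also those below the filter. Python 3.11.15 and matplotlib 3.10.9 drew the figures. Same-numbered arrays deviated together at r = 0.04 across genes.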

Additional observations from a re-analysis of the deposited data

How the results depend on the processing

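Slc7a5, Slc7a1 and Slc6a12 kept their direction in every alternative that tested them, between -0.73 and -0.59, between -0.43 and -0.21 and between 1.00 and 2.39 on the log2 scale. Counts are given as higher and lower in Ezh2 KO. The transporter genes (1 and 2) were 0 and 2 with the 50th percentile filter, where Slc6a12 was not tested, and 1 and 1 with averaged probe sets. Calls over all genes differed too, at 1845 of 10346 with that filter and 958 of 13916 with averaged probe sets. The main fit called 1608 of 13916. The probe sets (1 and 2) were 0 and 2 with no filter and with the 50th percentile filter. Under 1 prior variance shared by all genes, limma called 0 genes of any list and 0 probe sets (6 transporter genes at an unadjusted p under 0.05). Leaving out 1 array left 1 group with a single array. The number of calls then varied for the transporters and for all genes, so those counts are not given. In the main fit the counts were 1 and 4 for the amino acid response genes and 0 and 1 for the sensing genes. They were 1 and 3 for the metabolism genes and 0 and 1 for the other carriers. The response genes had 0 higher with median centring, no filter or averaged probe sets, the sensing genes 2 lower with median centring, and the other carriers 0 lower with averaged probe sets. The median log2 change of the transporters (-0.066) was -0.16 with median centring, 0.067 with no filter, -0.033 with a pseudocount of 64, -0.018 with averaged probe sets and -0.079 to 0.062 without 1 array. The transporter median minus the median of all genes was -0.073 in the main fit. Median centring cannot change this difference, as it shifts all genes of an array alike. The difference was 0.050 with no filter, 0.029 without WT replicate 1 and 0.058 without Ezh2_KO replicate 1. It was negative in the other alternatives. The causes of the other differences were not tested. Median centring moved the calls over all genes from 772 higher and 836 lower to 402 and 1014, and the median of all genes from 0.007 to -0.09.

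The samples share replicate numbers only as labels. With the replicate block limma called 2719 of all genes in place of 1608, 2 higher and 3 lower transporter genes (Slc6a6 and Slc36a1 joined), 3 higher and 2 lower probe sets, 1 and 7 response genes, 1 and 2 sensing genes, 2 higher metabolism genes and 2 lower other carriers. Intervals were wider at lower intensity, with a median reach of 1.00 log2 units below 100 and 0.20 at 500 or more.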
